A study of Mus musculus with 14 samples.

Results

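Metallothioneins 1 and 2 and the genes around them that sense and move zinc were followed across 13 mouse liver samples. The 6 genes, Mt1, Mt2, Mtf1, Slc30a1, Slc39a14 and Slc30a10, were taken by symbol from the 24411 genes counted in each library, and all 6 were among the 9644 genes with enough reads to test. The mice were male littermates aged 5 to 7 months, and all carried floxed Rbbp5 alleles. WT mice were Rbbp5 flox/flox; Alb-CRE -/-, and LKO mice were Rbbp5 flox/flox; Alb-CRE +/- (the sample labels spell the knockout as RRBP5 LKO). The albumin promoter drives Cre in hepatocytes, so the other cells of the liver keep Rbbp5, whose product is a core subunit of COMPASS, the family of enzymes that place methyl groups on histone H3. Mice received one intraperitoneal injection of tunicamycin at 0.05 mg/kg, which blocks N-linked glycosylation and causes endoplasmic reticulum (ER) stress, or the vehicle, 3% DMSO in PBS, and liver was taken 8 h later. The WT mice gave 3 libraries per treatment and the LKO mice 4. LKO vehicle libraries 3 and 4 were near duplicates, close to sampling noise, and were summed as 1 sample. The labels give no animal numbers, so p-values measure the spread between these samples.

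Metallothioneins are small, cysteine-rich proteins that bind zinc and copper and buffer the free metal in the cell. The zinc-sensing transcription factor MTF1 binds metal response elements upstream of Mt1 and Mt2 and of Slc30a1, which encodes the plasma membrane zinc exporter ZnT1. In liver, Mt1 and Mt2 also respond to glucocorticoids and to interleukin 6, as does Slc39a14, which encodes ZIP14, an importer of zinc, iron and manganese. Slc30a10 encodes ZnT10, which exports manganese.

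Mt2 and Mt1 lie side by side on mm10 chromosome 8, on the same strand, at 94172618-94173567 and 94179089-94180327, with 5521 bases between them. Slc30a1 (chromosome 1, 191906781-191913247) and Slc30a10 (chromosome 1, 185454848-185468761) share a chromosome, Mtf1 is on chromosome 4 (124802549-124849800) and Slc39a14 on chromosome 14 (70303467-70351424). The 250 bases before the RefSeq start of each gene (GRCm38.p6) were searched on both strands for the core of the metal response element, TGCACNC or TGCGCNC. A match was present in 21.4% of all 32851 such windows, and 3 or more matches in 1.26%. In these windows Mt2 and Slc30a10 each had 3 matches, Mt1 and Slc30a1 had 1 each, and Mtf1 had 0. Bases from the RefSeq start onwards, or farther than 250 bases before it, were not searched. The counts therefore do not give all matches near a gene, and they depend on which start is used. Slc39a14 was not searched. The windows of Mt2 and Slc30a10 are shown because they hold the most matches, which are in capitals, and both are on the plus strand.
Mt2, chr8:94172368-94172617: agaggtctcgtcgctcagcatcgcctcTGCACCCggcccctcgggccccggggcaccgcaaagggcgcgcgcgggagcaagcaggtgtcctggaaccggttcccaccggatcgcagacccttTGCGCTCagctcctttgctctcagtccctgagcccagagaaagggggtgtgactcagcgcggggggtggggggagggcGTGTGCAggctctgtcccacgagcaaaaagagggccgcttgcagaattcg
Slc30a10, chr1:185454598-185454847: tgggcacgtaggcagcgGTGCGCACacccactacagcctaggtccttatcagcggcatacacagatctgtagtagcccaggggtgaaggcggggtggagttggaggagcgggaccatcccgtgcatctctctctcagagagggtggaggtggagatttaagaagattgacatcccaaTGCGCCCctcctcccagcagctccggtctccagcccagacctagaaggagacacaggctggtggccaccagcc
For Mt1 and Slc30a1 the single match is shown with 10 bases on either side, also from the plus strand, which is the strand of both genes.
Mt1, chr8:94179056-94179082: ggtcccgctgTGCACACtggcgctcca
Slc30a1, chr1:191906728-191906754: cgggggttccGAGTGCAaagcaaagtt
In the Slc30a10 window the first capital run holds 2 overlapping matches, 1 on each strand. The Mt1 match ended 17 bases before the start and the Slc30a1 match 37 bases before it. The antioxidant response element core, TGACNNNGC, matched once in Mt2 and once in Slc30a1, against 10.2% of all windows. No window of these genes held the STAT core TTCNNNGAA, TGATGCAA (ATF4) or the ER stress element. A match is a string of letters and was not tested as a binding site.

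Reads on genes ranged from 6507018 to 13519421 per library, of which the 45S ribosomal RNA gene Rn45s took 72.5 to 75.5%, leaving 1704479 to 3551398 reads on other genes. Levels are given as CPM, read counts scaled to a common total of the reads on all genes tested, Rn45s included, with library sizes adjusted by TMM. Rbbp5 was at 4.07 to 6.41 CPM in the 6 WT samples and at 1.90 to 4.15 CPM in the 7 LKO samples, so 1 LKO vehicle sample lay at the level of the lowest WT sample. Hspa5, the ER chaperone BiP, was at 197 to 253 CPM in WT vehicle and at 854, 313 and 786 CPM in WT tunicamycin samples 1, 2 and 3. It was at 117 to 173 CPM in LKO vehicle and at 142 to 229 CPM in LKO tunicamycin.

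Mt1 and Mt2 were the most abundant of the 6 genes and the most variable. On the length-scaled FPKM of the deposited table, the median over samples was 108 for Mt1, 102 for Mt2, 4.99 for Slc39a14, 2.17 for Slc30a1, 0.541 for Slc30a10 and 0.509 for Mtf1. The highest CPM was 24.97 times the lowest for Mt1 and 38.7 times for Mt2. For the other genes this ratio was 3.72 (Slc30a10), 2.62 (Slc39a14), 1.62 (Mtf1) and 1.54 (Slc30a1). Mt3 and Mt4, the other metallothionein genes in the files, had 0 reads in every library.

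**Figure D1:**
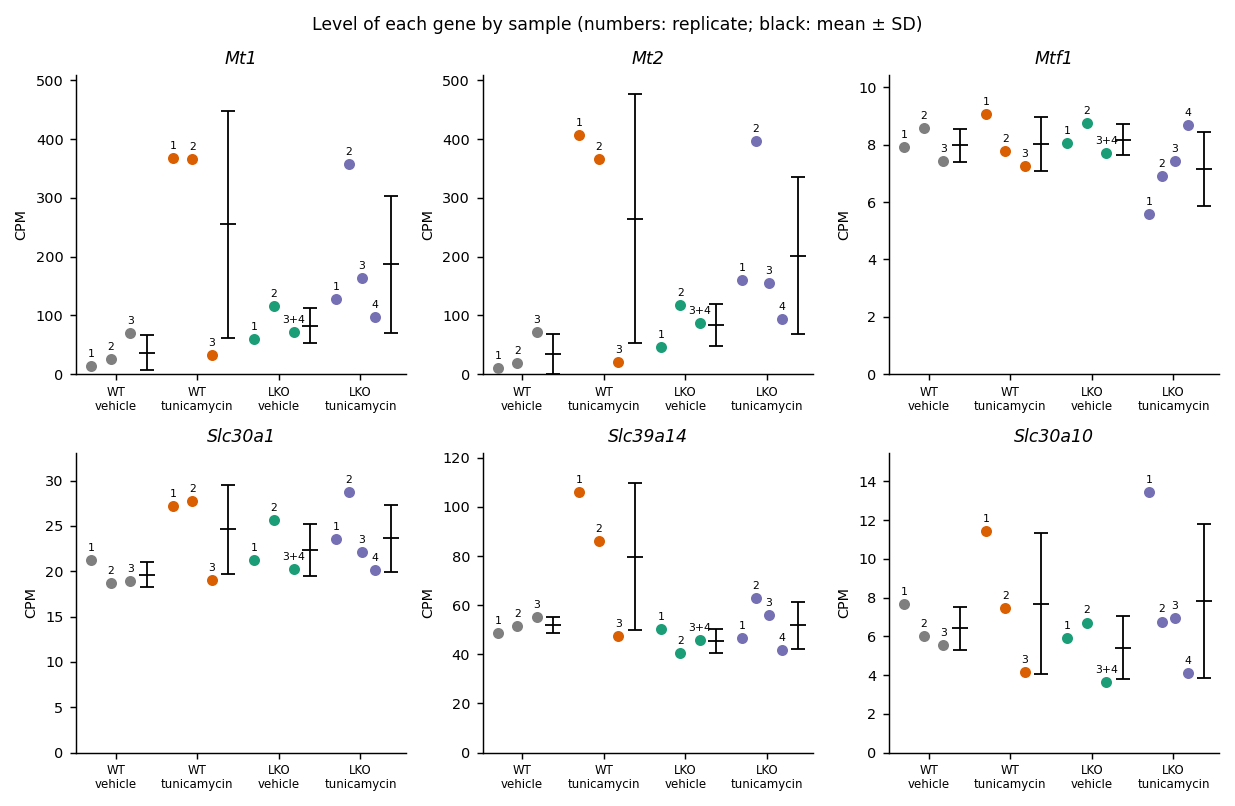
CPM of each of the 6 genes (vertical axes, starting at 0) in the 13 samples, by group on the horizontal axis. Points are samples with their replicate numbers, and black bars give the group mean ± SD. WT tunicamycin sample 3 sits with the vehicle samples for Mt1, Mt2 and Slc39a14.

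For Mt1, the WT vehicle samples 1, 2 and 3 had 14.7, 25.6 and 70.4 CPM, and WT tunicamycin samples 1, 2 and 3 had 368, 366 and 32.6 CPM. LKO vehicle samples 1, 2 and 3+4 had 60.3, 116 and 72.0 CPM, and LKO tunicamycin samples 1 to 4 had 129, 358, 164 and 97.2 CPM. In each genotype the tunicamycin samples thus overlapped the vehicle samples: WT tunicamycin 3 lay below WT vehicle 3, and LKO tunicamycin 4 lay below LKO vehicle 2. The group means stood in order from WT vehicle (36.9 ± 29.5 CPM, SD, n = 3) through LKO vehicle (82.7 ± 29.3, n = 3) and LKO tunicamycin (187 ± 117, n = 4) to WT tunicamycin (255 ± 193, n = 3), and neighbours in this order overlapped.

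For Mt2, WT vehicle samples 1, 2 and 3 had 10.5, 19.7 and 72.4 CPM, and WT tunicamycin samples had 407, 366 and 21.3 CPM. In LKO liver, the vehicle samples had 46.3, 118 and 87.0 CPM and the tunicamycin samples 161, 397, 155 and 94.7 CPM. The same samples were high and low as for Mt1, and no pair of neighbouring groups was separate. Mt2 averaged 34.2 ± 33.4 CPM in WT vehicle, 83.7 ± 35.9 in LKO vehicle, 202 ± 134 in LKO tunicamycin and 265 ± 212 in WT tunicamycin. The antisense gene Gm45774 overlaps Mt2, and only reads on the strand of Mt2 were counted.

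Reads of both genes together made up 0.0101% of the reads other than Rn45s in WT vehicle 1 and 0.282% in WT tunicamycin 1, the lowest and highest samples. There were between 0.654 and 1.25 Mt2 reads per Mt1 read. Over the 13 samples, log2 CPM of Mt1 and Mt2 correlated with Pearson's r = 0.99 and Spearman's rho = 0.99 (permutation p = 1e-05 for each, the smallest that 100000 resamples can give; adjusted p = 0.00015 over 15 pairs of genes). With the group means removed, r was 0.99, and without the 2 samples farthest from the median of Mt1 it was 0.99.

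Mtf1, the zinc sensor, stayed in a narrow range. WT vehicle samples had 7.90, 8.59 and 7.43 CPM and WT tunicamycin samples 9.08, 7.78 and 7.25 CPM. LKO vehicle samples had 8.06, 8.76 and 7.71 CPM and LKO tunicamycin samples 5.60, 6.90, 7.44 and 8.69 CPM. All 4 groups overlapped, and the group means lay between 7.15 and 8.18 CPM. Its level did not follow that of Mt1 (r = -0.085, rho = -0.0055, permutation p = 0.788 and 0.992, adjusted p = 0.844 and 0.992).

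Slc30a1, the zinc exporter, had 21.2, 18.7 and 19.0 CPM in WT vehicle and 27.3, 27.7 and 19.0 CPM in WT tunicamycin. In LKO liver it had 21.2, 25.6 and 20.2 CPM with vehicle and 23.6, 28.8, 22.1 and 20.1 CPM after tunicamycin. The highest values were in the samples with the most Mt1, WT tunicamycin 1 and 2 and LKO tunicamycin 2. Slc30a1 correlated with Mt1 over the 13 samples (r = 0.82, rho = 0.81, permutation p = 0.00065 and 0.00152, adjusted p = 0.00487 and 0.0076), and r was 0.89 without the 2 samples farthest from the median of Mt1 and 0.74 with the group means removed. With Mt2 r was 0.80 and rho 0.82 (permutation p = 0.0015 and 0.00095, adjusted p = 0.0075 and 0.00712), and r was 0.87 without the 2 samples farthest from the median of Mt2. No other pair among the 15 passed an adjusted p of 0.05 by either measure.

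**Figure D2:**
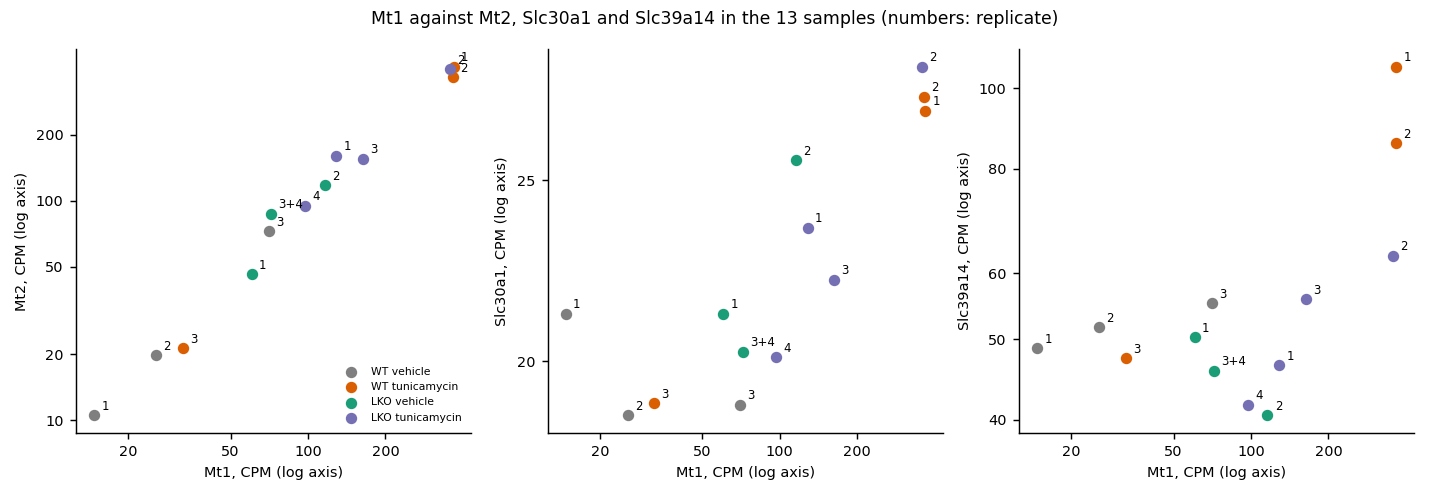
CPM of Mt2, Slc30a1 and Slc39a14 (vertical, log axes) against CPM of Mt1 (horizontal, log axis), with 1 point per sample, coloured by group and numbered by replicate. Mt2 follows Mt1 over the whole range (r = 0.99). The 3 samples with the most Mt1 also have the most Slc30a1, and WT tunicamycin 1 and 2 have the most Slc39a14.

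Slc39a14, the importer ZIP14, had 48.7, 51.6 and 55.2 CPM in WT vehicle and 106, 85.9 and 47.4 CPM in WT tunicamycin. LKO vehicle samples had 50.2, 40.5 and 45.8 CPM and LKO tunicamycin samples 46.5, 63.0, 55.8 and 41.7 CPM. WT tunicamycin 1 and 2 were above every other sample, while WT tunicamycin 3 was below all 3 WT vehicle samples. Its correlation with Mt1 over all samples did not pass (r = 0.62, rho = 0.46, permutation p = 0.0219 and 0.118, adjusted p = 0.0778 and 0.233). With the group means removed, r was 0.83, beside 0.74 for Slc30a1 with Mt1, and neither was tested. Computed within genotype, r was 0.94 in the 6 WT samples and 0.66 in the 7 LKO samples, and the difference between genotypes was not tested.

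Slc30a10, the manganese exporter, was low and spread widely within groups. WT vehicle samples had 7.66, 6.02 and 5.54 CPM and WT tunicamycin samples 11.4, 7.46 and 4.17 CPM. LKO vehicle samples had 5.92, 6.72 and 3.62 CPM and LKO tunicamycin samples 13.5, 6.77, 6.93 and 4.13 CPM. Sample 1 was the highest of both tunicamycin groups, and all 4 groups overlapped. Between 27 and 101 reads per sample stand behind these values, the fewest of the 6 genes.

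The first comparison asked how the low dose of tunicamycin moved these genes in WT liver. Log2 fold changes (± SE) were 2.80 ± 0.71 for Mt1, 2.96 ± 0.83 for Mt2, 0.62 ± 0.22 for Slc39a14, 0.33 ± 0.16 for Slc30a1, 0.27 ± 0.39 for Slc30a10 and 0.014 ± 0.17 for Mtf1. In the quasi-likelihood test of edgeR, adjusted over all genes by Benjamini-Hochberg, the adjusted p was 0.0895 for Mt1, 0.114 for Mt2, 0.193 for Slc39a14, 0.359 for Slc30a1, 0.808 for Slc30a10 and 0.981 for Mtf1. So 0 of 6 genes passed the threshold of 0.05, against 0.363% of all genes tested. At an unadjusted p under 0.05 there were 3 (Mt1, Mt2 and Slc39a14), against 14.8% of all genes. DESeq2 called 1 gene, Mt1 (adjusted p = 0.0424), where 1.87% of the genes it tested were called higher. On the FPKM values limma called 0 of the 6, and 0 of all genes. The vehicle and tunicamycin groups overlapped for all 6 genes, while they did not overlap for 17.3% of all genes. The median log2 fold change was 0.48 over the 6 genes and 0.014 over all genes tested.

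By edgeR with the filter on low counts, these calls turned on 1 sample. Without WT tunicamycin 3, edgeR called 3 of 6 genes higher (3.22% of all genes tested were called higher in that fit): Mt1 by 3.32 (adjusted p = 0.00187), Mt2 by 3.51 (adjusted p = 0.00343) and Slc39a14 by 0.89 (adjusted p = 0.0037) on the log2 scale. Leaving out any other single sample gave 0 calls among the 6. Of all genes tested, 0 were called without WT tunicamycin 1, WT vehicle 1 or WT vehicle 2, and 2 were called without WT vehicle 3. Without WT vehicle 3 the log2 fold changes were larger, 3.64 for Mt1 and 4.11 for Mt2, but did not pass (adjusted p = 0.156 for each). WT tunicamycin 3 was not low for Hspa5, with 786 CPM, whereas WT tunicamycin 2, with 366 CPM of Mt1, had 313 CPM of Hspa5. With no filter on low counts, 2 genes were called, Mt1 (adjusted p = 2.57e-05) and Mt2 (adjusted p = 0.000103), where 1.11% of all genes were called higher.

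In LKO liver the question was the same, and no difference passed. The log2 fold change after tunicamycin was 1.17 ± 0.64 for Mt1, 1.26 ± 0.74 for Mt2, 0.53 ± 0.34 for Slc30a10, 0.19 ± 0.20 for Slc39a14, 0.076 ± 0.15 for Slc30a1 and -0.18 ± 0.14 for Mtf1. By edgeR the adjusted p lay between 0.494 (Mt1) and 0.889 (Slc30a1), so 0 of 6 passed against 0.0311% of all genes, and 0 had an unadjusted p under 0.05 against 12.2%. DESeq2 also called 0 of the 6, and 34 of all genes. So did limma on FPKM, with 1 of all genes called on log2(FPKM + 1) and 2 on log2(FPKM + 0.1). Groups overlapped for all 6 genes, while 11.6% of all genes had separate groups. LKO tunicamycin 2, with 358 CPM of Mt1 and 397 CPM of Mt2, was at the level of WT tunicamycin 1 and 2, and its Hspa5 was 142 CPM.

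Between genotypes given vehicle, the metallothioneins were higher on average in LKO liver but not beyond the spread. Log2 fold changes of LKO against WT were 1.17 ± 0.68 for Mt1 (adjusted p = 0.686, edgeR) and 1.30 ± 0.79 for Mt2 (adjusted p = 0.698). Without WT vehicle 3 these values were 2.03 and 2.46, and over all 13 fits that leave out a sample they ranged from 0.78 to 2.03 and from 0.86 to 2.46. The WT vehicle sample 3 lay among the LKO vehicle samples for both genes, while WT vehicle 1 and 2 lay below all of them. Summed stellate cell markers separated these groups (44.0 to 74.6 CPM in WT, 85.3 to 123 in LKO). Of these markers, Col1a1, Col1a2 and Col3a1 did so singly, while Dcn, Lrat and Des overlapped. Summed bile duct markers, mostly Spp1, also separated the vehicle groups (8.60 to 11.7 CPM in WT, 17.6 to 55.4 in LKO). The part of these markers in the metallothionein difference was not tested. Slc30a1 differed by 0.19 ± 0.16, Mtf1 by 0.034 ± 0.16, Slc39a14 by -0.19 ± 0.22 and Slc30a10 by -0.27 ± 0.38, with adjusted p between 0.803 and 0.985. By edgeR 0 of 6 passed against 0.0415% of all genes, and 0 had an unadjusted p under 0.05 against 8.15%. DESeq2 called 0 of the 6 and 17 of all genes. With limma 0 of the 6 were called, and of all genes 0 on log2(FPKM + 1) and 2 on log2(FPKM + 0.1). The groups were separate for none of the 6 genes and for 15.1% of all genes.

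After tunicamycin, all 6 genes had a log2 fold change below 0 in LKO against WT, with a median of -0.28 against -0.012 over all genes, and only that of Slc39a14 held under every alternative tried. Slc39a14 differed most, by -0.63 ± 0.20 (edgeR, unadjusted p = 0.0068, adjusted p = 0.154). Mt1 differed by -0.45 ± 0.61, Mt2 by -0.39 ± 0.71, Mtf1 by -0.16 ± 0.16, Slc30a1 by -0.065 ± 0.15 and Slc30a10 by -0.010 ± 0.35, with adjusted p between 0.660 and 0.994. By edgeR 0 of 6 passed against 0.861% of all genes, and 1 had an unadjusted p under 0.05 against 15.8%. DESeq2 called 0 of the 6 and 137 of all genes. With limma 0 of the 6 were called, and of all genes 7 on log2(FPKM + 1) and 8 on log2(FPKM + 0.1). Without WT tunicamycin 3, Slc39a14 was called lower in LKO by 0.90 on the log2 scale (-0.90, adjusted p = 0.0163), where 0.453% of all genes were called lower. It was also called with no filter on low counts (-0.63, adjusted p = 0.0301), where 0.8% were. The WT tunicamycin samples are also part of the WT comparison above, so both share their spread. With limma on log2(FPKM + 1), Mt1 and Mt2 had the opposite sign, 0.18 and 0.42.

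The interaction term asks whether the response to tunicamycin itself differed between the genotypes. It was -1.63 ± 0.91 for Mt1, -1.70 ± 1.06 for Mt2, -0.44 ± 0.30 for Slc39a14, -0.25 ± 0.22 for Slc30a1, -0.20 ± 0.22 for Mtf1 and 0.26 ± 0.52 for Slc30a10. By edgeR the adjusted p was at least 0.981 for each gene, and 0 of 6 passed, as did 0% of all genes. At an unadjusted p under 0.05 there were 0, against 4.91% of all genes. DESeq2 and limma on the FPKM of all 13 samples called 0 of the 6 and 0 of all genes. With 1 sample left out, the term ranged from -2.47 to -1.22 for Mt1 and from -2.85 to -1.24 for Mt2, and the largest sizes came without WT vehicle 3.

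**Figure D3:**
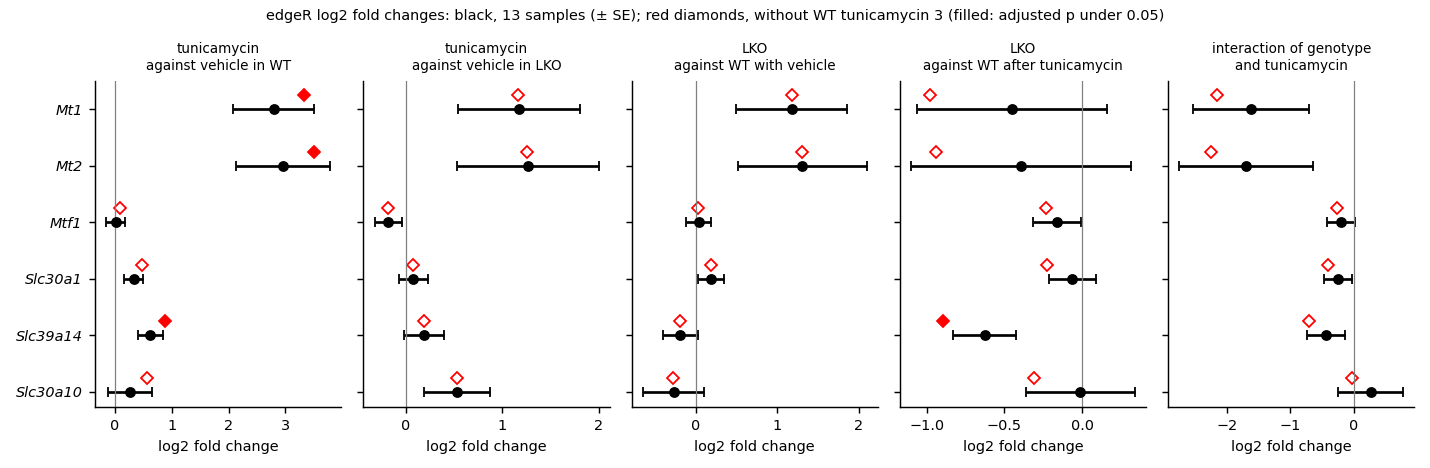
Log2 fold change (horizontal axes, which differ in range) of each gene (rows) in the 5 comparisons, by edgeR. Black points with SE bars are from all 13 samples, and red diamonds are from the fit without WT tunicamycin 3, filled where adjusted p was under 0.05. The metallothioneins have the largest values after tunicamycin in WT (2.80 and 2.96) and the widest errors, no black point passes an adjusted p of 0.05, and the filled diamonds are Mt1, Mt2 and Slc39a14 in WT and Slc39a14 between genotypes after tunicamycin.

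Few other genes of zinc transport passed the test. Of 8 further genes of the SLC30 family of zinc transporters, 5 had enough reads to test, and 1 was called in 1 comparison. Slc30a5 encodes ZnT5, which moves zinc into the early secretory pathway. It had 27.8, 16.7 and 16.7 CPM in WT tunicamycin samples 1, 2 and 3 and 14.7, 11.2, 11.5 and 12.1 CPM in LKO tunicamycin samples, so the groups did not overlap, as held for 12.9% of all genes. The log2 fold change of LKO against WT after tunicamycin was -0.73 (edgeR, adjusted p = 0.0459), against 0.55% of all genes called lower. Leaving out each sample in turn kept this call 4 times of 13, with adjusted p up to 0.336 over all alternatives. With vehicle Slc30a5 had 13.4, 13.6 and 14.7 CPM in WT and 11.3, 10.2 and 9.73 CPM in LKO. None of the other SLC30 genes tested was called, and Slc30a9, the most abundant, averaged between 19.0 and 21.7 CPM in the 4 groups.

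Of 13 further SLC39 genes, whose proteins bring zinc into the cytosol, 9 were tested and 0 were called in any of the 5 comparisons by edgeR. Slc39a1 averaged 13.1 CPM in WT vehicle, 17.6 in WT tunicamycin, 15.2 in LKO vehicle and 18.4 in LKO tunicamycin, and Slc39a9 averaged between 13.8 and 16.9 CPM. The median log2 fold change after tunicamycin was 0.12 in WT and 0.056 in LKO for the SLC39 genes, beside 0.014 and 0.0045 over all genes. All 9 genes of copper handling, a metal that metallothioneins also bind, were tested and 0 were called. Among them, Cp (ceruloplasmin, the copper-carrying ferroxidase of plasma) averaged 392 ± 34.7 CPM in WT vehicle, 816 ± 376 in WT tunicamycin, 604 ± 223 in LKO vehicle and 1169 ± 104 in LKO tunicamycin. Sod1, the copper and zinc superoxide dismutase, averaged between 91.3 and 130 CPM.

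Genes of the inputs known to act on metallothioneins were measured beside them. Summed over 19 acute phase genes, the plasma protein and signalling genes that interleukin 6 raises in hepatocytes, WT vehicle samples had 5195 to 6855 CPM, and WT tunicamycin samples 1, 2 and 3 had 26147, 27609 and 6204 CPM. LKO vehicle samples 1, 2 and 3+4 had 7289, 15789 and 6223 CPM, and LKO tunicamycin samples had 16968 to 25611 CPM. The samples with the most and least of these transcripts were largely those with the most and least Mt1 and Mt2, including WT tunicamycin 3 at the vehicle level and LKO vehicle 2 above the other vehicle samples. In edgeR's test, 2 of the 19 were called higher after tunicamycin in WT, against 0.29% of all genes called higher: Hpx, the haem-binding hemopexin (log2 fold change 2.02, adjusted p = 0.0427), and Steap4, a metalloreductase (1.997, adjusted p = 0.0399). All 19 had a log2 fold change above 0 after tunicamycin in both genotypes, with medians of 2.02 in WT and 1.10 in LKO. Between genotypes after tunicamycin, 1 was called, Socs3, the feedback inhibitor of cytokine signalling, which was called lower in LKO (-1.69, adjusted p = 0.0459), against 0.55% of all genes called lower. Leaving out 1 sample at a time kept each of these 3 calls in 4 of 13 fits. The part of the acute phase level in the metallothionein values was not tested.

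**Figure D4:**
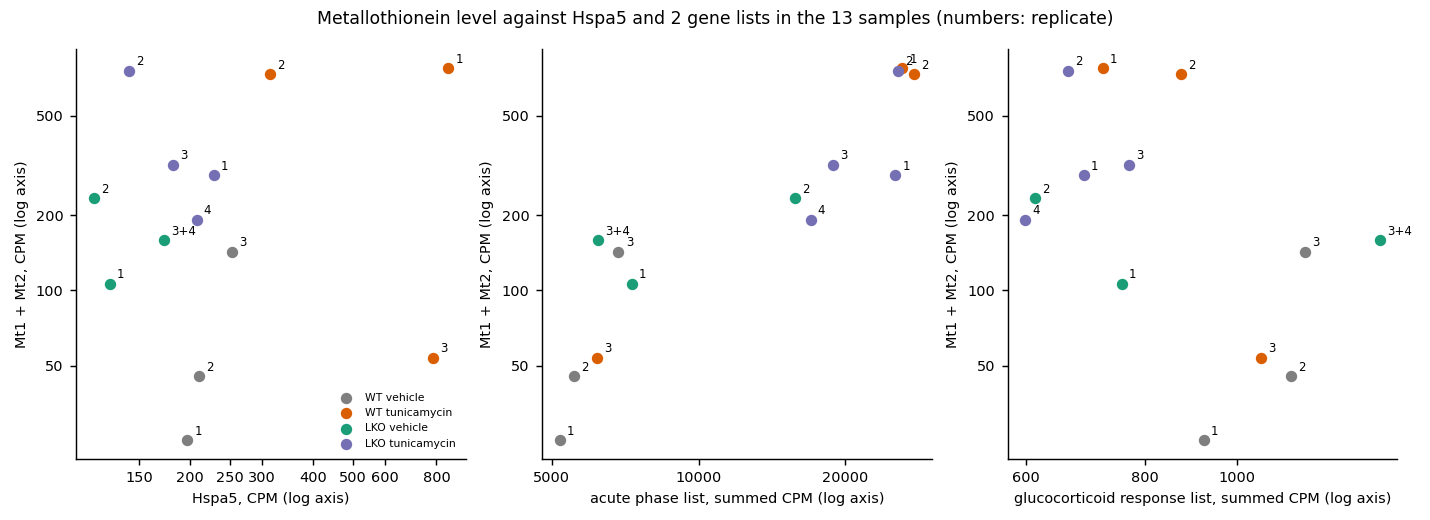
Summed CPM of Mt1 and Mt2 (vertical, log axes) against CPM of Hspa5, summed CPM of 19 acute phase genes and summed CPM of 10 glucocorticoid response genes (horizontal, log axes), with 1 point per sample, coloured by group and numbered by replicate. WT tunicamycin 3 has 786 CPM of Hspa5 and 6204 CPM of acute phase transcripts, and LKO tunicamycin 2 has 142 and 25611 CPM.

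The summed level of 10 glucocorticoid response genes was highest in LKO vehicle 3+4. It was 923 to 1177 CPM in WT vehicle and 723 to 1059 in WT tunicamycin. In LKO liver it was 613 to 1411 CPM with vehicle and 600 to 771 after tunicamycin. Tat, which averaged between 485 and 689 CPM in the 4 groups, made up most of this sum. The part of the glucocorticoid response in the metallothionein values was not tested. By edgeR, Dusp1, a phosphatase of MAP kinases, was called lower after tunicamycin in WT (-1.89, adjusted p = 0.017) and in LKO (-1.74, adjusted p = 0.0268), against 0.0726% and 0.0104% of all genes. Zbtb16, a transcription factor, was called lower in LKO against WT after tunicamycin (-1.78, adjusted p = 0.0441), against 0.55% of all genes called lower. With each of the 13 samples left out in turn, the Dusp1 call was kept 9 times in WT and 6 times in LKO, and the Zbtb16 call 3 times. The other members of this list of 10 were not called in any comparison. Of 8 oxidative stress genes 6 were tested and 0 were called, and Gclc and Gclm, the subunits of the enzyme that starts glutathione synthesis, averaged between 42.3 and 63.6 CPM. Of 12 ER stress genes, 6 were called higher after tunicamycin in WT, led by Ddit3 (3.71, adjusted p = 0.0399, edgeR), the stress transcription factor CHOP, and the ER proteins Sdf2l1 (1.69, adjusted p = 0.017), Pdia4 (1.63, adjusted p = 0.00711) and Hspa5 (1.57, adjusted p = 0.0388), against 0.29% of all genes called higher. The count was 0 without WT tunicamycin 1, WT vehicle 1 or WT vehicle 2, 1 without WT vehicle 3, 3 without LKO tunicamycin 3 or 4, and between 4 and 8 without any other single sample. Where this count was 0, the fit called 0 of all genes tested, and without WT vehicle 3 it called 2 of them. In LKO against WT after tunicamycin 7 were called lower, led by Ddit3 (-4.02, adjusted p = 0.0149), Creld2 (-3.004, adjusted p = 0.0102), Trib3 (-2.91, adjusted p = 0.0332) and Hspa5 (-1.78, adjusted p = 0.0102), against 0.55% of all genes. That count was 0 without WT tunicamycin 1, 3 without LKO tunicamycin 3 or 4, 4 without LKO tunicamycin 2 or WT tunicamycin 3, and between 5 and 9 without any other single sample. The fit without WT tunicamycin 1 called 0 of all genes tested in this comparison as well.

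Markers of other cells were checked because these are whole-liver samples, in which fewer cells of a type and less RNA per cell cannot be told apart. Summed hepatocyte markers lay between 14022 and 23748 CPM, with overlapping groups. Summed bile duct markers were 8.60 to 11.7 CPM in WT vehicle, 8.49 to 42.5 in WT tunicamycin, 17.6 to 55.4 in LKO vehicle and 36.1 to 111 in LKO tunicamycin, with WT tunicamycin 3 the lowest of all samples. Only Sox9 and Spp1 of these 6 markers had enough reads to test, Spp1 made up most of the sum, and Krt7, Krt19, Epcam and Cftr were each at 0 in at least 1 sample. Summed stellate cell markers were 44.0 to 74.6 CPM in WT vehicle and 69.1 to 99.5 in WT tunicamycin. In LKO liver they were 85.3 to 123 CPM with vehicle and 82.5 to 130 after tunicamycin. With vehicle the LKO sums thus lay above all WT sums. Singly, this held for the collagens Col1a1, Col1a2 and Col3a1 and not for Dcn, Lrat and Des. Summed macrophage markers were 30.4 to 33.7, 30.4 to 40.7, 23.3 to 37.0 and 33.2 to 68.8 CPM in the same order of groups. Their part in the metallothionein values was not tested.

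The genes whose levels were most like those of each member over the 13 samples were found among the 5998 genes whose log2 CPM averaged 2 or more, as a description with no test. After Mt2 itself, Mt1 was most like Lrrc8d (r = 0.96), a subunit of volume-regulated anion channels, and C4bp (r = 0.94), a complement regulator. Mt2 was most like Mt1, Lrrc8d (r = 0.95) and Sptlc2 (r = 0.94), a subunit of the enzyme that starts sphingolipid synthesis. Slc30a1 was most like Slc41a2 (r = 0.91), a magnesium transporter, Bsg (r = 0.89), the chaperone of monocarboxylate transporters, and B4galt1 (r = 0.89), a galactosyltransferase. Slc39a14 was most like Efna1 (r = 0.94), an ephrin ligand, 3110043O21Rik (r = 0.94) and Id2 (r = 0.91), an inhibitor of helix-loop-helix transcription factors. For Mtf1 the highest values were with Rad23b (r = 0.84), a DNA repair factor, Pdcd11 (r = 0.83) and Zfp654 (r = 0.79). For Slc30a10 they were with Rbm26 (r = 0.87), Orc4 (r = 0.86), a subunit of the origin recognition complex, and C1rl (r = 0.85). Across the 4 groups, Lrrc8d averaged 7.26 CPM in WT vehicle, 9.87 in WT tunicamycin, 8.39 in LKO vehicle and 10.1 in LKO tunicamycin, so it followed Mt1 over a much narrower range.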

How the data were processed

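Polyadenylated RNA of 14 liver libraries was sequenced. The authors deposited whole read counts per gene with columns for each strand (STAR output, per the file headers) and an FPKM table. The submitters' processing notes name Trimmomatic, STAR, Cufflinks and mm10, with no versions. The sense-strand count column was used, which held 99.5 to 99.6% of stranded reads. Rn45s was kept in the library sizes and was left out only of the remaining reads and of the share of reads on Mt1 and Mt2. LKO vehicle libraries 3 and 4 (chi-square per degree of freedom 1.12; other pairs of the same group 3.38 to 25.9) were summed, leaving 13 samples. The deposited FPKM values of LKO vehicle 2 sum to 99390, against at least 156500 in the others. Repeated names in the FPKM table (277) were not used.

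Counts were fitted with edgeR 4.0.16 in R 4.3.3 (TMM, filterByExpr, quasi-likelihood test, 1 mean per group, 9 residual degrees of freedom), with Benjamini-Hochberg adjustment over 9644 genes and a threshold of 0.05. The procedure was run on simulated counts in which every gene had the same relative spread between samples. That run does not cover genes that vary as widely as Mt1 and Mt2. Alternatives were other scalings, DESeq2 1.42.0, no filter, only the groups compared, all 14 libraries, a replicate block, limma 3.58.1 on log2(FPKM + 1) and log2(FPKM + 0.1), and leaving out each sample. Correlations used log2 CPM with 100000 resamples. The 6 genes and all lists were chosen with earlier results of these data known. The rule for named genes took the 6 genes in every comparison, of each list the genes called (at most 4, largest changes first) or, with none called, at most 2 of highest mean CPM, and the 3 genes most like each member. The spread between samples, not counting error, sets the precision, since reads carry no molecular identifiers. No per-sample column was unused (0).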

Additional observations from a re-analysis of the deposited data

How the results depend on the processing

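Over 683 values of the 6 genes under alternatives, 627 kept their direction and did not pass the threshold, and 8 kept their direction and came to pass it. The other 48 changed sign, none of these with a size over 0.44. No value passed in the main fit, so none could cease to pass. Some of the 683 come from fits that leave out a sample of neither group compared, which hardly test the value. For example, Mt1 after tunicamycin in WT was 2.775 without LKO vehicle 1 and 2.798 with all 13 samples. The number of genes called after tunicamycin in WT was 1 with DESeq2, 2 with no filter on low counts and 0 to 3 when 1 sample was left out. In LKO against WT after tunicamycin it was 1 with no filter and 0 to 1 when 1 sample was left out. The causes were not tested, except that the highest counts came without WT tunicamycin 3.

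Log2 fold changes that changed sign were as follows. For Mtf1 after tunicamycin in WT the value was -0.17 with total count scaling, -0.0076 with no filter, -0.059 on log2(FPKM + 1), -0.16 on log2(FPKM + 0.1) and -0.088 to 0.082 when 1 sample was left out. With 1 sample left out, Slc30a10 in WT ranged from -0.15 to 0.56, Slc30a1 in LKO from -0.022 to 0.19, Mtf1 in LKO against WT with vehicle from -0.023 to 0.080, and the interaction of Slc30a10 from -0.11 to 0.68. In LKO against WT after tunicamycin, log2(FPKM + 1) and log2(FPKM + 0.1) gave 0.18 and 0.19 for Mt1, 0.42 and 0.44 for Mt2, 0.012 and 0.038 for Mtf1, 0.064 and 0.094 for Slc30a1, and 0.037 and 0.096 for Slc30a10. Leaving out the FPKM column of LKO vehicle 2, an alternative chosen after seeing the data, cannot change these values. That fit gives each group its own mean, and the column is in neither group compared. Total count scaling gave 0.083 for Slc30a1 and 0.13 for Slc30a10. That scaling put the median of all genes at 0.14 here and at -0.18 after tunicamycin in WT, and over all genes it called 142 of 164 and 33 of 148 higher, against 30 of 83 and 28 of 35 with TMM. For Slc30a10, DESeq2 gave 0.0098 and a fit of only the groups compared 0.0019. With 1 sample left out, Mt2 ranged from -0.95 to 0.055, Slc30a1 from -0.22 to 0.027 and Slc30a10 from -0.39 to 0.41.

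Same-numbered samples of different groups deviated together weakly at most (12 pairs, r from -0.12 to 0.12, 1 over 0.1), so the numbers were not taken as pairs. In 5 of the 12 the same-numbered sample had the highest r of its group, each time in LKO against WT. A replicate block called 0 of 6 genes in each of the 5 comparisons and turned Slc30a1 to 0.015 and Slc30a10 to 0.25 in LKO against WT after tunicamycin. Depth limits Slc30a10 and Mtf1 most, with at least 27 and 42 reads per sample.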
